A study of Mus musculus with 2 samples.

Results

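Conventional type 1 dendritic cells (cDC1) were taken from 2 droplet single-cell RNA libraries of mouse tumours by a rule on marker genes, which selected 93 of 16798 barcodes that passed the quality filter. A barcode was selected if Xcr1 or Clec9a was detected, if at least 2 of the 5 markers Xcr1, Clec9a, Itgae, Wdfy4 and Cd24a were detected, and if it held at least 3 UMIs (unique molecular identifiers, the count of captured RNA molecules) of the MHC class II gene H2-Ab1. It could hold at most 2 UMIs of the macrophage genes C1qa, C1qb and C1qc together and none of Cd3e, Cd3g, Csf3r or Fscn1, which mark T cells, neutrophils and migratory dendritic cells. The rule gave 77 cells in the control library and 16 in the motolimod library. Because measured values chose the cells, levels of the rule's genes are given as a description.

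cDC1 are antigen-presenting cells that take up material from dying cells through the receptor CLEC9A and present it on MHC class I to CD8 T cells, a process called cross-presentation. Their development depends on the transcription factors IRF8 and BATF3, and the chemokine receptor XCR1 brings them to cells that release its ligand. In mouse tumours they are known for priming CD8 T cells and for producing chemokines that attract them. Motolimod is a small-molecule agonist of Toll-like receptor 8, an endosomal sensor of single-stranded RNA.

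The study compared tumours labelled Control with tumours labelled Motolimod-treated, with 1 library and 5 mice per group. Tissue was broken up with collagenase D plus DNase I, and CD45-positive immune cells were enriched on magnetic beads, so the cell shares below are shares within that selection. The labels do not state the tumour model, strain, age, dose, time of treatment or if a library pooled its 5 mice. With 1 library per group there was no replicate error and no test, and the 95% intervals given in parentheses cover counting error only.

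Sequences upstream of 3 genes of the cDC1 programme are shown because they hold short motifs of the kind that interferon regulatory factors are known to bind. Clec9a and Tlr11 hold a composite motif of such a factor with an ETS partner, and Tlr11 and Ifi205 hold the core of the interferon response element, which has no partner half-site. They cover the 250 bases before the RefSeq transcription start (build GRCm38.p6), are printed 5′ to 3′ on the gene's strand, and carry motif matches in capitals. Clec9a, the dead-cell receptor used by the rule, has this window at chr6:129408612-129408861 on the plus strand. Tlr11, an endosomal sensor of microbial profilin in mice, has it at chr14:50357664-50357913 on the plus strand, and Ifi205, an interferon-inducible gene, at chr1:174031756-174032005 on the minus strand.
Clec9a: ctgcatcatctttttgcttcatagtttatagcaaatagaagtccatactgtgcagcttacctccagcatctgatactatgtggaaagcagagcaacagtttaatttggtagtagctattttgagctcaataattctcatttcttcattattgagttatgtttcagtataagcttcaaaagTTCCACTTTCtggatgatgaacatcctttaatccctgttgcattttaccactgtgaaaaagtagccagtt
Tlr11: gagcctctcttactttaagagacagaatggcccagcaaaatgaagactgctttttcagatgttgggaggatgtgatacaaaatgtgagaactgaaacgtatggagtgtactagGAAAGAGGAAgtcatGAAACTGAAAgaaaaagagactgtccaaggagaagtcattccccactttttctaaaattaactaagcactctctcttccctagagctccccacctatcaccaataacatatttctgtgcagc
Ifi205: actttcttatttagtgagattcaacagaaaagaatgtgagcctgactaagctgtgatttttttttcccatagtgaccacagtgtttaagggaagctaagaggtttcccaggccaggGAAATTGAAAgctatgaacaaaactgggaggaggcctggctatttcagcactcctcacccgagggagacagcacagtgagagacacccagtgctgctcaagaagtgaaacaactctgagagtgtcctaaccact

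The match in Clec9a joins the half-sites GAAA and GGAA with 2 free bases between them, read on the minus strand, from 70 to 61 bases upstream of the start. Both strands were searched for 4 motifs in the promoters of the 24 of 30 listed marker and identity genes that RefSeq matched. GAAA followed by GGAA at this spacing, the composite of an interferon regulatory factor and an ETS factor, was in 2.30% of all 32851 promoters and in those of Clec9a and Tlr11. The reverse order, GGAA followed by GAAA, was in 2.30% of all promoters and in those of Cd8a and Bcl6. GAAA repeated at the same spacing, the interferon response element core, was in 2.98% of all promoters and in those of Tlr11, Ifi205 and Apol7c. The AP-1 site TGANTCA was in 6.75% of all promoters and in those of Zbtb46, Itgax and Cd207. A match describes the letters only.

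The selected cells were among the deeper barcodes of both libraries. Their median was 17867 UMIs and 3590 genes in the control, and 15628 UMIs and 3416 genes with motolimod, against 14055 and 3743 UMIs over all passing barcodes. Their UMIs summed to 1389762 in the control and 279648 with motolimod. The libraries shared 113 barcode sequences, and 0 of these were selected. A mixed droplet, with at least 2 UMIs of 11 genes of T cells, neutrophils, B cells and epithelial cells, occurred 1 time among the selected cells of each library. These genes include none of macrophages or monocytes, so mixing with those cells was not assessed.

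Near the limits of the rule, the lowest H2-Ab1 count of a selected cell was 4 UMIs in the control and 18 with motolimod, and the 2 control barcodes that failed on this gene alone held 0. The C1q genes had 0 UMIs in 57, 1 UMI in 17 and 2 UMIs in 3 control cells, and 4 further control barcodes lay just outside with 3 UMIs. With motolimod 13 cells held 0 and 3 cells held 1 UMI. The C1q limit alone left out 149 barcodes in the control and 52 with motolimod, more than any other single condition. Having only 1 marker alone left out 16 and 2.

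The selected cells made up a smaller share of the motolimod library than of the control library. They were 1.03% (0.813 to 1.28) of 7484 control barcodes and 0.172% (0.0982 to 0.279) of 9314 motolimod barcodes, a ratio of 0.167 (0.0909 to 0.289). Dendritic cells gated on Cd209a, a marker of conventional type 2 dendritic cells (cDC2), were 55 and 43 cells, with a ratio of 0.628 (0.411 to 0.954). Dendritic cells gated on Fscn1 and Ccr7, markers of migratory dendritic cells, were 45 and 10 cells, with a ratio of 0.179 (0.0802 to 0.359). The interval of the selected cells lay below that of the Cd209a gate and overlapped that of the migratory gate. Within these 3 gates together the selected cells made up 43.5% (36.1 to 51.1) in the control and 23.2% (13.9 to 34.9) with motolimod, a ratio of 0.533 (0.290 to 0.922).

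**Figure D1:**
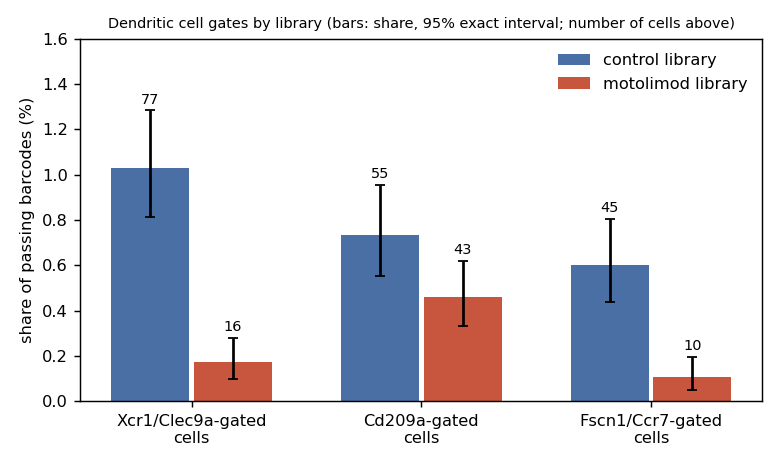
Share of passing barcodes (%) in each dendritic cell gate, by library; bars are shares, lines exact 95% intervals. The Xcr1/Clec9a gate stood at 1.03% in the control and 0.172% with motolimod, and the Cd209a gate at 0.735% and 0.462%.

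Other features of the libraries moved with this share. Neutrophils, gated on Csf3r, were 4.12% of control and 13.2% of motolimod barcodes. Leaving neutrophils and keratin-positive cells out of the denominator gave a ratio of 0.202 (0.110 to 0.349). With every barcode thinned to 1000 UMIs the rule found 17 control and 4 motolimod cells, a ratio of 0.193 (0.0473 to 0.592). Requiring both Xcr1 and Clec9a left 46 and 7 cells and a ratio of 0.122 (0.0466 to 0.273). The ratio lay below 1 in each of these settings.

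The label was checked against genes that the rule did not use. Irf8, the lineage factor, stood at 1519 CPM (counts per 1000000 summed UMIs, 1455 to 1585) in control cells and its motolimod level was 2013 CPM (1850 to 2187). Batf3, its partner, stood at 176 CPM (155 to 199.8) and 161 CPM (117 to 215). Naaa, a lysosomal amidase, stood at 1082 and 1302 CPM. Each was above the other passing barcodes, which had 207 and 202 CPM of Irf8, 50.2 and 46.1 CPM of Batf3 and 119.7 and 165 CPM of Naaa. Irf8 was not particular to the selected cells. With motolimod it stood at 1011 CPM in the migratory gate and at 102 CPM in the Cd209a gate. Naaa had a UMI in 96.1% of control and 93.8% of motolimod cells, against 8.76% and 6.02% of T cells, whose median depths were 5642 and 4747 UMIs.

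Several genes stood far above the pooled other barcodes, and some of them were also found in the Cd209a gate. Sept3, a septin, stood at 149 and 189.5 CPM against 1.47 and 1.31 CPM in the other barcodes and 53.4 and 43.7 CPM in the Cd209a gate. Btla, an inhibitory receptor of lymphocytes and cDC1, stood at 109 and 122 CPM against 1.47 and 0.869 CPM in the other barcodes. It stood at 8.44 and 21.9 CPM in the Cd209a gate and 32.4 and 12.2 CPM in the migratory gate. Gcsam stood at 72.7 and 53.6 CPM against 0.821 and 0.229 CPM in the other barcodes and had 0 UMIs in the Cd209a gate of both libraries. Tlr3, the sensor of double-stranded RNA, stood at 42.5 and 39.3 CPM against 3.58 and 5.34 CPM in the other barcodes. H2-Oa and H2-Ob, which modulate peptide loading on MHC class II, were among the 20 genes with the highest fold over the other barcodes in both libraries, and 12 of these 20 were shared. H2-Oa did not part the gates, at 179.9 and 157 CPM in the selected cells and 218 and 122 CPM in the Cd209a gate, and H2-Ob stood at 125 and 125 and at 89.99 and 80.2 CPM. Since markers chose the cells, these values describe the selection.

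The rule's own markers were spread unevenly over the cells. Clec9a was detected in 75 of 77 control and 13 of 16 motolimod cells, at 289.98 CPM (262 to 319.7) and 218 CPM (167 to 280.2). Xcr1 was detected in 48 and 10 cells, at 149.7 CPM (130.02 to 171) and 129 CPM (90.2 to 178). Itgae, the integrin chain CD103, was detected in 51 and 6 cells, at 231 and 118 CPM. Wdfy4, needed for cross-presentation, stood at 471 and 511 CPM and Cd24a, a surface glycoprotein, at 445 and 547 CPM. In the T cell gate 0 cells of either library held a UMI of Xcr1 or Clec9a. In a macrophage gate, with at least 10 UMIs of the C1q genes, Clec9a had a UMI in 6.18% of control and 2.74% of motolimod cells. The median depths of that gate were 15698 and 7565 UMIs. All 5 markers were detected in 41 control and 3 motolimod cells, 4 in 11 and 6, 3 in 9 and 4, and only 2 in 16 and 3.

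The number of markers in a cell parted the selection into cells that resembled cDC1 to different degrees. Cells with 4 or 5 markers, here called marker-rich, numbered 52 in the control and 9 with motolimod, and cells with 2 or 3 markers, here called marker-poor, 25 and 7. Marker-poor cells were 32.5% (22.2 to 44.1) of the selected cells in the control and 43.8% (19.8 to 70.1) with motolimod. This division was chosen after the data were seen. Depth moved with it, with median UMIs of 19868 in marker-rich and 14422 in marker-poor control cells, and 20823 and 13836 with motolimod, and its part in the differences below was not tested.

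Genes of cDC1 identity that the rule did not use were lower in the marker-poor cells. Of 23 measured identity genes (at least 20 CPM in the higher subset), 18 were at least 2-fold higher in marker-rich and 1 in marker-poor control cells, against 7.86% and 12.3% of all genes measured in the same way. With motolimod 10 of 22 were higher in marker-rich and 1 in marker-poor cells, against 25.1% and 19.4%. In the control Irf8 stood at 1898 CPM in marker-rich and 467 CPM in marker-poor cells, a ratio of 0.246 (0.210 to 0.288). Ppt1, a lysosomal thioesterase, stood at 862 and 101 CPM, and Btla at 139.9 and 24.5 CPM. Cadm1, an adhesion molecule of cDC1, stood at 118 CPM in marker-rich and had 0 UMIs in marker-poor control cells. Zbtb46, a factor shared by conventional dendritic cells, stood at 68.5 and 73.4 CPM, so that it did not part the subsets.

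With motolimod Irf8, Ppt1 and Btla were also lower in marker-poor cells. Irf8 stood at 2402 CPM in marker-rich and 1061 CPM in marker-poor cells, a ratio of 0.442 (0.347 to 0.557). Ppt1 stood at 388 and 209.8 CPM, a ratio of 0.541 (0.300 to 0.924), and Btla at 166 and 12.3 CPM. For Cadm1, with 7 UMIs in marker-rich and 0 in marker-poor cells, the interval of the ratio reached 1.70 and held 1, so no direction was detectable. Batf3, at 176 and 123 CPM, had an interval of the ratio that held 1 (0.309 to 1.45).

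Marker-poor cells of the control held genes of other myeloid cells. Sirpa, a surface receptor of cDC2 and macrophages, had a UMI in 19 of 25 marker-poor and 2 of 52 marker-rich cells, at 125 and 3.91 CPM. S100a4, a calcium-binding protein, stood at 625 CPM in marker-poor and 18.6 CPM in marker-rich cells, a ratio of 33.6 (21.04 to 56.9). Fcgr1, the high-affinity IgG receptor, stood at 171 and 13.7 CPM, and Cybb, a subunit of the NADPH oxidase, at 163 and 10.8 CPM. Sirpa, S100a4, Fcgr1 and Cybb were picked among the genes highest in marker-poor over marker-rich control cells. Their direction there was therefore fixed by the choice. Of the 7 measured markers of cDC2, 6 were at least 2-fold higher in marker-poor cells. Of the 9 measured monocyte and macrophage markers 7 were, against 12.3% of all genes in both cases. For comparison, the Cd209a gate of the control held Sirpa at 146 CPM, S100a4 at 977 CPM and Fcgr1 at 129 CPM.

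The subsets overlapped cell by cell in the summed level of the identity list. It ran from 1545 to 11595 CPM (median 6999) in marker-rich and from 1161 to 6657 CPM (median 2652) in marker-poor control cells, and from 2401 to 10171 CPM (median 6356) and 1386 to 8678 CPM (median 2746) with motolimod. Because the division was made from the rule's own markers it is no test of the label. The levels of Sirpa, S100a4 and Fcgr1 in marker-poor control cells go against the label cDC1 for some of the selection. These genes were picked for their difference between the subsets, so they are no test either. The marker-poor cells are given no other name. With motolimod the monocyte and macrophage markers did not repeat the control difference as a list. Of 7 measured, 2 were at least 2-fold higher in marker-poor cells and 1 in marker-rich cells, against 19.4% and 25.1% of all genes. Of the cDC2 markers 6 of 9 were higher in marker-poor cells and 0 in marker-rich cells.

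With motolimod S100a4 (568 and 101 CPM), Fcgr1 (148 and 25.2 CPM) and Klrd1 (481 and 65.5 CPM) were again higher in marker-poor cells. Klrd1 had stood at 188 and 8.81 CPM in the control. Sirpa, at 12.3 and 20.1 CPM over 3 cells in all, was not higher. Nor was Pltp, with a ratio of 319 in the control and 0.981 (0.224 to 3.40) with motolimod. Ms4a6b had ratios of 32.2 and 1.23, and the latter interval held 1 (0.329 to 3.94).

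**Figure D2:**
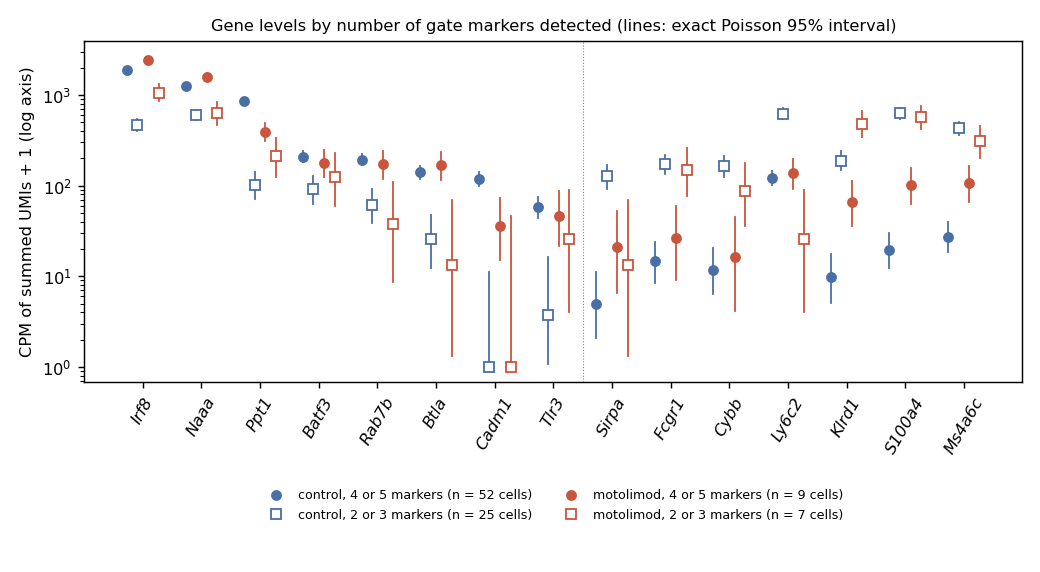
CPM of summed UMIs plus 1 (log axis) for 15 genes in marker-rich and marker-poor cells of each library; lines are exact Poisson 95% intervals. The 8 genes left of the dotted line are identity genes and were lower in marker-poor cells of the control. They ran from 467 against 1898 CPM for Irf8 to 0 UMIs for Cadm1. The 7 genes on the right were higher there, and most of them were picked for that difference. With motolimod Sirpa and Ly6c2 were not higher in marker-poor cells.

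Single cells carried some markers of other cells. One marker-poor control cell held 194 of 592 UMIs of the plasmacytoid dendritic cell list (32.8%), at 19330 CPM against a median of 103 CPM over the 77 cells, and it also held all 46 UMIs of Ly6d. The same cell held 29 of 38 UMIs of the T cell list, all of them Cd8b1, in which list Trbc2, Cd3d and Lck were at 0 in both libraries. Ccr7, the receptor of migrating dendritic cells, had UMIs in 5 control and 2 motolimod cells, of which 4 and 2 were marker-poor. The lists for mast cells and basophils were at 0 UMIs in both libraries, and those for NK cells, fibroblasts and endothelial cells, platelets, and epithelial or tumour cells each summed to at most 26.6 CPM.

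Summed over cells, genes of the type I interferon response were higher in the marker-poor subset of both libraries. Of 24 measured genes 18 were at least 2-fold higher in marker-poor and 0 in marker-rich control cells, against 12.3% and 7.86% of all genes. With motolimod 22 of 28 and 0 were, against 19.4% and 25.1% of all genes. Isg15, a ubiquitin-like modifier, stood at 1101 CPM in marker-poor and 397 CPM in marker-rich control cells, and at 2197 and 131 CPM with motolimod. Rsad2, an antiviral enzyme, stood at 97.8 and 8.81 CPM in the control and at 136 and 5.03 CPM with motolimod. Ifit3 had 0 UMIs in the marker-rich cells of both libraries and stood at 43.5 and 148 CPM in marker-poor cells. One motolimod cell held 52.0% of the list's UMIs in the marker-poor subset and 3 of its 7 cells held 87.4%. In the control the highest cell held 14.8% and the highest 3 held 29.7%. With motolimod the list ran from 717 to 17635 CPM per marker-poor cell (median 2223). In marker-rich cells it ran from 192 to 2963 CPM (median 1361), so the subsets overlapped.

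T cell attracting chemokines were divided in the same way. In the control 6 of 8 measured were at least 2-fold higher in marker-poor cells and 0 in marker-rich cells, against 12.3% and 7.86% of all genes. With motolimod 5 of 7 and 0 were, against 19.4% and 25.1% of all genes. One cell held 69.7% of the list's 185 UMIs in the marker-poor motolimod subset, and that cell also held 68 of the subset's 157 UMIs of the neutrophil list and 27 of its 36 UMIs of the migratory dendritic cell list. Cxcl9, a ligand of CXCR3, stood at 307 and 104 CPM in marker-poor and marker-rich control cells. Cxcl10, another ligand, stood at 462 and 14.7 CPM, but 67.03% of its UMIs over the selected control cells came from 1 cell. Cxcl9 did not follow this with motolimod, where it stood at 49.4 and 85.6 CPM.

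The libraries were then compared over the selected cells. Of 1441 genes of at least 100 CPM in the library where they were higher, 58 differed at least 2-fold (4.02%), 41 higher with motolimod (2.85%) and 17 lower (1.18%). The median log2 ratio of the 1441 genes was 0.02. The counting intervals of the 58 excluded 1, but at these depths the 2-fold and 100 CPM limits already fix that. It is no further support for the 58, and the intervals leave out the spread over cells. At the 20 CPM minimum used for gene lists, 13.3% of 5497 genes differed at least 2-fold, 7.33% higher and 6% lower with motolimod. These shares are the background for every count of list genes between the libraries below. At 50 CPM the shares were 6.43%, 4.06% and 2.36%, and at 200 CPM 2.23%, 1.96% and 0.279%.

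The antigen presentation machinery stood close to the control level. Of 10 measured MHC class II genes 0 differed by 2-fold, with a median log2 ratio of -0.04. H2-Aa stood at 11094 and 10520 CPM and Cd74, the invariant chain, at 28770 and 28350 CPM. Of 10 MHC class I genes 0 differed, with a median log2 ratio of 0.00. Of 20 genes of cross-presentation 0 differed by 2-fold, with a median of -0.11. Within them the immunoproteasome subunits Psmb8 (1882 and 1455 CPM, ratio 0.773, 0.695 to 0.859) and Psmb9 (1204 and 855 CPM, ratio 0.710, 0.617 to 0.813) were lower, and Calr, an endoplasmic reticulum chaperone, was higher (276 and 426 CPM, ratio 1.54, 1.25 to 1.90). Tap1, a subunit of the peptide transporter, stood at 450.4 and 383 CPM.

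Identity genes were mostly at the control level, with a median log2 ratio of -0.13. Of 23 measured, 3 were at least 2-fold lower and 0 higher, against 6% and 7.33% of all genes. The lower ones were Cadm1 (87.1 and 25.03 CPM, ratio 0.288, 0.113 to 0.611), Plpp1, a lipid phosphatase (89.2 and 25.03 CPM, ratio 0.281), and Cd8a. Cd8a, the CD8 alpha chain carried by cDC1 of lymphoid organs, stood at 36.7 CPM in 15 control cells and at 0 UMIs in 16 motolimod cells. A floor of 3 counts over the library's selected cells allows 10.7 CPM, which lies 3.42-fold below the control value. That figure leaves out the counting error of the control UMIs and the spread over cells. The 51 control UMIs lay in 15 of 77 cells, and a difference in the share of cells was not tested. Ppt1 stood at 661 and 336 CPM, a ratio of 0.509 (0.407 to 0.630), and Itgax, the integrin chain CD11c, at 166 and 96.5 CPM, a ratio of 0.581 (0.375 to 0.867). Irf8 was higher, with a ratio of 1.33 (1.21 to 1.46), and Naaa too, with 1.20 (1.07 to 1.35).

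The other identity genes had intervals that held 1. They included Id2, an inhibitor of other lineage factors (486 and 443 CPM), Rab7b, an endosomal GTPase (157 and 132 CPM), and Nfil3, a transcription factor of cDC1 development (90.7 and 75.1 CPM). Mycl, a MYC family factor used by these cells, stood at 39.6 and 67.9 CPM, a ratio of 1.72 (0.962 to 2.94). Snx22, Ly75 and Bcl6 stood at 32.4 and 21.5, 38.1 and 35.8, and 47.5 and 50.1 CPM. Apol7c had 0 UMIs in both libraries and Cd207 had 1 in the control.

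Genes of the G2 and M phases stood higher in the motolimod library, and a single cell carried much of this. Of 17 measured genes 14 were at least 2-fold higher with motolimod while 0 were lower, with a median log2 ratio of 1.23. Ube2c, a ubiquitin-conjugating enzyme of mitosis, stood at 114 and 415 CPM, a ratio of 3.65 (2.85 to 4.67). Mki67, the proliferation marker, stood at 78.4 and 204 CPM, a ratio of 2.60. Cenpf, a kinetochore protein, stood at 17.3 and 118 CPM, a ratio of 6.83 (3.92 to 12.1). One motolimod cell held 50.4% of the list's 585 UMIs in that library, against 12.2% of 1147 UMIs in the highest control cell. Without that cell the median log2 ratio was 0.53, and without the motolimod cell with most of its UMIs Cenpf had a ratio of 1.45 and Ube2c of 1.58. The Cd209a gate had a median of 2.19 over the same list.

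The share of cells with at least 3 UMIs of the G2 and M list was 40.3% (29.2 to 52.1) in the control and 43.8% (19.8 to 70.1) with motolimod. After thinning each cell to 2000 UMIs it was 14.3% (7.35 to 24.1) and 31.3% (11.0 to 58.7), with overlapping intervals in both cases. Marker-rich cells held 24 of the 31 such cells in the control and 6 of 7 with motolimod. In the Cd209a gate the share was 21.8% and 20.9%. Genes of the S phase went the other way, with 6 of 16 at least 2-fold lower with motolimod and 0 higher. The shares of all genes were 6% and 7.33%, and the list's median log2 ratio was -0.92. Pcna, the sliding clamp, stood at 117 and 60.8 CPM, and Dut, which keeps uracil out of DNA, at 130.2 and 60.8 CPM. In that list 3 motolimod cells held 73.7% of 171 UMIs, and after thinning to 2000 UMIs the median was -0.01.

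Immediate early genes, which cells transcribe within minutes of a stimulus and also during tissue dissociation, tended to stand higher with motolimod. Of 21 measured genes 3 were at least 2-fold higher and 0 lower, against 7.33% and 6% of all genes. The median log2 ratio was 0.65. Fosb, a subunit of AP-1, stood at 94.3 and 286 CPM, a ratio of 3.03 (2.27 to 4.04). Junb stood at 1022 and 2156 CPM, a ratio of 2.11, and Egr1 at 37.4 and 92.97 CPM, a ratio of 2.48. In cells with at least 4 markers the list's median was 0.06, while Fosb stood at 81.2 and 257 CPM and Junb at 856 and 1989 CPM there. The Cd209a gate had a median of 0.72 over the same list.

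**Figure D3:**
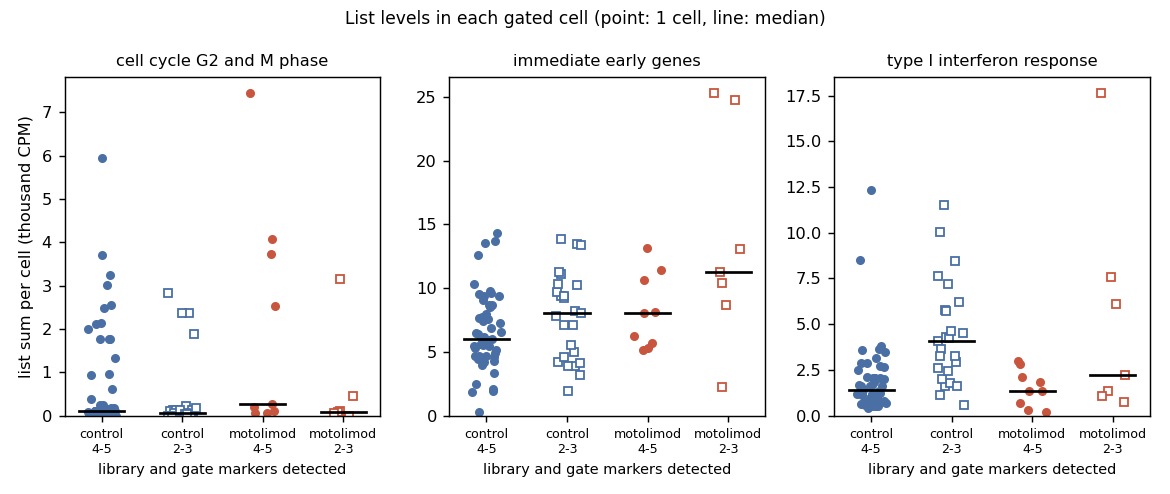
Summed CPM of 3 gene lists in each selected cell (axes in units of 1000 CPM), by library and by number of markers detected; each point is 1 cell and each line a median. One motolimod cell reached 7440 CPM for the G2 and M list, and marker-poor control cells had a median of 4083 CPM for the type I interferon list against 1368 CPM in marker-rich cells.

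Several of the 12 highest ratios rested on few cells. Ccl3, an inflammatory chemokine, stood at 12.2 CPM (7.13 to 19.6) in 6 control cells and 168 CPM (123 to 223) in 4 motolimod cells, a ratio of 13.7 (7.74 to 25.5). Its level in the neutrophil gate was 1692 and 6424 CPM, and the summed level of 10 neutrophil markers in the selected cells was 261 and 715 CPM. Most of that sum was Il1r2, at 251 and 608 CPM, a gene that also stood at 1288 and 364 CPM in the Cd209a gate, so the sum does not mark neutrophils alone. The list ranged from 0 to 4236 CPM per control cell and from 0 to 4714 CPM per motolimod cell, Retnlg, Cxcr2 and Mmp9 were at 0 in both libraries, and its part in the result was not tested. The Ccl3 ratio was 18.9 in cells with at least 4 markers, 11.1 without mixed droplets, 8.32 without the motolimod cell with most of its UMIs and 0.981 in cells with both Xcr1 and Clec9a.

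Cd72, a C-type lectin of B cells and macrophages, stood at 19.4 and 118 CPM, a ratio of 6.07, with UMIs in 4 motolimod cells. Gadd45b and Ppp1r15a, stress response genes, had ratios of 4.80 and 3.43, and 57.1% and 52.9% of their motolimod UMIs came from 1 cell. Cish, a feedback inhibitor of cytokine signalling through STAT5, stood at 25.9 CPM in 23 control cells and 118 CPM in 7 motolimod cells, a ratio of 4.56 (2.75 to 7.52). It stood higher with motolimod in marker-rich cells (18.6 and 106 CPM) and in marker-poor cells (46.2 and 148 CPM). Klrd1, the CD94 chain, had a ratio of 3.31, Ifi209, an interferon-inducible gene, of 2.96, and the gene model Gm36161 of 5.80. Hilpda, a lipid droplet protein induced by hypoxia, had a ratio of 2.97 but stood at 16.6 and 5.03 CPM in marker-rich cells.

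The 12 lowest ratios were led by Serpina3g. Serpina3g, a serine protease inhibitor, stood at 316 CPM (287 to 347) in 52 control cells and 96.5 CPM (63.6 to 140.5) in 6 motolimod cells, a ratio of 0.306 (0.199 to 0.451). Dnase1l3, a DNase that digests DNA of dying cells, stood at 114 and 42.9 CPM, a ratio of 0.375 (0.190 to 0.674). Both were also lower with motolimod in marker-rich cells, Serpina3g at 373 and 85.6 CPM and Dnase1l3 at 145 and 45.3 CPM.

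Upp1, a uridine phosphorylase, stood at 116 and 39.3 CPM, a ratio of 0.340, and Tnni2, a troponin subunit, at 148 and 53.6 CPM, a ratio of 0.362. Ncoa7, Etfb, Anapc5, Polr2g, Caprin1 and Sfr1 had ratios from 0.416 to 0.463. Ly6c2, a gene of monocytes and plasmacytoid dendritic cells, had a ratio of 0.409 but stood at 120.4 and 136 CPM in marker-rich cells. Ccl6, a chemokine of myeloid cells, had a ratio of 0.443 and of 0.993 in marker-rich cells. The monocyte and macrophage markers summed to 987 CPM in the control and 833 CPM with motolimod over the selected cells, and the plasmacytoid markers to 426 and 154 CPM, and their part in the Ly6c2 and Ccl6 ratios was not tested. Of the 24 highest and lowest genes 19 kept their direction in every alternative.

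**Figure D4:**
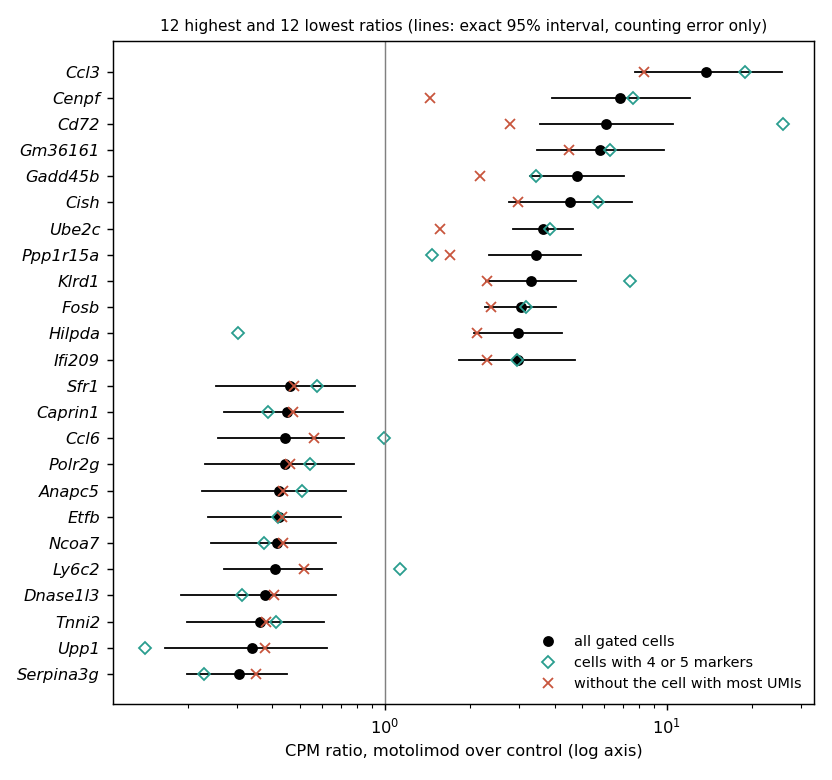
CPM ratio of motolimod over control (log axis) for the 12 highest and 12 lowest genes; circles are the selected cells with exact 95% intervals, diamonds cells with 4 or 5 markers, crosses the value without the cell with most UMIs of the gene. Hilpda, at 2.97 over the selected cells, stood at 0.303 in cells with 4 or 5 markers, and Ly6c2, at 0.409, stood at 1.13.

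Chemokines differed in both directions. Among 8 measured T cell attracting chemokines, 2 were past 2-fold up and 4 down with motolimod, against 7.33% and 6% of all genes. Cxcl9 stood at 158 CPM in 24 control cells and 75.1 CPM in 3 motolimod cells, a ratio of 0.477 (0.289 to 0.747). In marker-rich cells it stood at 104 and 85.6 CPM, a ratio of 0.825 with an interval that held 1 (0.463 to 1.38). Cxcl16, the ligand of CXCR6, stood at 132 and 222 CPM, a ratio of 1.67. Ccl4 stood at 294 and 637 CPM, a ratio of 2.16, but at 233 and 282 CPM in marker-rich cells, and 1 cell held 51.7% of its UMIs over the 16 motolimod cells.

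Of 5 measured myeloid attracting chemokines 2 were higher and 3 lower with motolimod, against 7.33% and 6% of all genes. The median log2 ratio was -1.18. Without the motolimod cell with most UMIs of the list 0 of 4 were higher and 3 lower (median -2.50), likewise without mixed droplets, and in cells with at least 4 markers the median was -0.01. Cxcl2, which draws neutrophils, stood at 56.8 and 147 CPM, with 70.7% of its motolimod UMIs in 1 cell, and Ccl2, which draws monocytes, at 76.3 and 3.58 CPM, the latter from 7 control cells and 1 motolimod cell. Pf4, a platelet chemokine, stood at 4.32 CPM in the control and had 0 UMIs with motolimod. Of the chemokine receptors, Ccr1 stood at 16.5 and 46.5 CPM and Ccr7 at 38.9 and 85.8 CPM, with 70.8% of the Ccr7 UMIs over the motolimod cells in 1 cell. Cxcr3 stood at 33.8 and 28.6 CPM.

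Of 23 measured type I interferon genes 4 were at least 2-fold higher and 1 lower, against 7.33% and 6% of all genes. The median log2 ratio was 0.41 over the selected cells and -0.02 in cells with at least 4 markers. One motolimod cell held 32.4% of the list's UMIs in that library, and without it 1 gene was higher, 1 lower and the median was -0.03. Isg20, an exonuclease, stood at 35.98 and 96.5 CPM, a ratio of 2.68 (1.62 to 4.37), with 51.9% of its motolimod UMIs in 1 cell. Of 18 interferon-gamma response genes 4 were at least 2-fold lower and 0 higher, against 6% and 7.33% of all genes. Their median was -0.25. Gbp2, a guanylate-binding GTPase, stood at 139 and 64.4 CPM, a ratio of 0.463. In the Cd209a gate the medians of these lists were 0.47 and -0.10.

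The receptor that the drug addresses was not detected. Tlr8 had 0 UMIs in both libraries, which with a floor of 3 counts allows up to 3.90% of 77 control and 18.8% of 16 motolimod cells with a UMI. Tlr7, the related sensor of single-stranded RNA, had 2 UMIs in 1 control cell and 0 with motolimod. Tlr3 had a ratio of 0.927 (0.439 to 1.78) and Tlr11 stood at 26.6 and 25.03 CPM. Tlr12, which pairs with TLR11 in mice, stood at 20.1 CPM in the control and had 1 UMI with motolimod, a ratio of 0.177 with an interval of 0.00434 to 1.07. Unc93b1, the chaperone of endosomal receptors, stood at 425 and 415 CPM. Of 7 genes of Toll-like receptor signalling 1 was at least 2-fold higher and 0 lower, against 7.33% and 6% of all genes.

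Of 4 measured cytokines 0 differed at least 2-fold between the libraries, with a median log2 ratio of 0.36. After thinning to 2000 UMIs the median was 1.52 and 3 of the 4 were at least 2-fold higher with motolimod. Il12b, the cytokine subunit for which cDC1 are known, had 1 UMI in the control and 0 with motolimod, and Ifnb1 had 0 in both. Il1b stood at 599 and 894 CPM, a ratio of 1.49. Of 16 measured maturation genes 1 was at least 2-fold higher and 1 lower, with a median log2 ratio of 0.11. Cd83, a maturation marker, stood at 357 and 465 CPM, a ratio of 1.30 (1.07 to 1.58), and Cd86, a costimulatory ligand, at 149 and 168 CPM. Cd40 stood at 66.9 and 42.9 CPM.

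Of 13 costimulatory and checkpoint genes, Tnfsf9, the ligand of 4-1BB, was higher (41.01 and 82.2 CPM), with 73.9% of its motolimod UMIs in 1 cell, and Icosl was lower (26.6 and 10.7 CPM) with an interval that held 1. Of 18 NF-kB subunits and targets Tnfaip3, an inhibitor of the pathway, was at least 2-fold higher (28.8 and 67.9 CPM, ratio 2.36). Of 23 growth factor receptors and transcription factors of dendritic cells 0 were past 2-fold, with Flt3, the receptor of their growth factor, at 93.5 and 96.5 CPM.

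The remaining lists are set beside the 7.33% of all genes higher and 6% lower by at least 2-fold with motolimod at the 20 CPM minimum. Of 7 genes for the uptake of dead cells 2 were higher and 1 lower, with the receptor Axl at 14.4 and 53.6 CPM, and the median of 0.87 was -0.26 without the mixed droplets. Of 13 cholesterol genes 3 were higher and 1 lower, with Insig1, a brake on sterol synthesis, at 25.2 and 75.1 CPM. Of 13 apoptosis regulators 2 were higher, and Bcl2, a survival factor, stood at 11.5 and 28.6 CPM. Of 14 adhesion genes 1 was higher and 1 lower. Of 13 heat-shock genes 2 were lower, with Hsph1 at 58.3 and 10.7 CPM. Of 18 glycolysis and hypoxia genes 0 were past 2-fold, with a median log2 ratio of -0.24. Pkm, pyruvate kinase, stood at 1066 and 751 CPM, a ratio of 0.705 (0.607 to 0.815), and Pgk1, phosphoglycerate kinase, at 634 and 408 CPM, a ratio of 0.643.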

How the data were processed

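The deposited tables hold raw UMI counts per gene and barcode, not normalized, per the file headers. Cell Ranger on mm10 made them, in version 5.0.1 per the submitters' processing notes but 7.1.0 per the file headers. The intron setting is not given in the sources used here. Barcodes passed with at least 300 genes, 800 UMIs and at most 10% mitochondrial UMIs. No doublet caller was run. The rule excludes barcodes with the listed genes of T cells, neutrophils and migratory dendritic cells and limits the C1q genes. It sets no limit on genes of monocytes, cDC2 or plasmacytoid dendritic cells. Results without mixed droplets, as defined above, were computed as an alternative. Depth over all barcodes was 127609378 UMIs in 8099 control barcodes and 62057685 in 10037 motolimod barcodes.

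UMIs of the selected cells were summed per library and scaled to CPM with exact Poisson intervals. Ratios had exact conditional binomial and shares exact Clopper-Pearson intervals at 95%, and no p-value is given. A call was at least 2-fold with at least 100 CPM in the higher library, or 20 CPM in the 37 gene lists. Named genes were the marker and identity genes, the 12 highest and 12 lowest ratios with a UMI in at least 25% of the cells of the higher library, up to 4 genes per list with the largest change, and Tlr7, Tlr8, Pf4, Cxcr3 and Cxcl9. Other genes named in the text were chosen after their values were seen, and some listed genes are not reported here. The members and lists were chosen with earlier results of these data known. Symbols with more than 1 identifier (38) were not used in lists. The ratio code was tested on simulated data. Tools were Python 3.11.15, numpy (2.4.6), scipy (1.17.1), pandas (2.3.3) and matplotlib (3.10.9).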

Additional observations from a re-analysis of the deposited data

Results flagged for a closer look

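In 4 named genes the selected cells and the Cd209a gate stood on opposite sides of 1 between the libraries. They were picked on this and on counting intervals that excluded 1, and the difference was not tested. Cish had a ratio of 4.56 in the selected cells and 0.321 in the Cd209a gate, where it stood at 153 and 49.2 CPM. Hilpda had ratios of 2.97 and 0.396, and its ratio in marker-rich selected cells was 0.303 (0.00724 to 1.93). Cxcl9 had ratios of 0.477 and 2.52, and its interval in marker-rich selected cells held 1. It stood at 49.2 and 124 CPM in the Cd209a gate, with a UMI in 20% and 11.6% of those cells. Il1r2, a decoy receptor of interleukin 1, had ratios of 2.42 and 0.283, and stood higher with motolimod in both marker-rich (94.9 and 206 CPM) and marker-poor cells (685 and 1592 CPM). One cell held 75.6% of the Il1r2 UMIs in marker-rich and 1 cell 52.7% in marker-poor motolimod cells.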

How the results depend on the processing

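The ratio of shares stayed below 1 in every setting, from 0.122 to 0.242 except 0.533 within the 3 dendritic cell gates. The 41 genes at least 2-fold higher became 116 in cells with both Xcr1 and Clec9a, 64 in cells with at least 4 markers, 266 after thinning to 2000 UMIs, and 117 and 14 at minimum levels of 50 and 200 CPM. The 17 lower genes became 44, 28, 143, 68 and 2 in the same order. Of the 41, 38, 40 and 39 stayed above 1 in the first 3 of these settings. Of the 25 lists other than markers of other cells, those with a median at least 0.5 from 0 numbered 6, and 11 after thinning. Directions turned for Ccl3 (0.98), Hilpda (0.39), Ly6c2 (1.91) and Ccl6 (1.25) in cells with both markers, for Hilpda (0.30) and Ly6c2 (1.13) in cells with at least 4 markers, for Tnni2 (1.20) after thinning, and among these 6 list medians for the myeloid chemokines with no minimum level (0.52) and dead-cell uptake without mixed droplets (-0.26). Of the 19 lists with a smaller median 12 changed sign in at least 1 setting, among them T cell chemokines (0.28 in cells with at least 4 markers, 0.51 after thinning), identity genes (0.36 after thinning) and cholesterol genes (-0.32 after thinning). The cause was not tested. The stricter filter, the mean over cells, the median of ratios and leaving out mixed droplets turned none of the 24 highest and lowest genes. The settings on at least 4 markers, the C1q limit and the motolimod cell with most UMIs of a list were chosen after seeing the data. No paired analysis was possible because each group had 1 library. With 16 motolimod cells, 1 UMI is 3.58 CPM and levels under 10.7 CPM were not distinguishable from 0.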
